A study of Mus musculus with 21 samples.

Results

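Insulin-like growth factors signal through 2 related receptor tyrosine kinases, the IGF1 receptor (Igf1r) and the insulin receptor (Insr). Activated receptors phosphorylate the docking proteins Irs1 and Irs2, which pass the signal to PI3K, Akt and mTOR. A family of secreted binding proteins holds most of the ligand outside the cell and can deliver it or keep it from the receptor. In skeletal muscle this axis drives growth of fibres and differentiation of myoblasts, and the ligand IGF2 is well known for its high level in rhabdomyosarcoma (RMS), a tumor with muscle features. Neu1, the lysosomal sialidase whose gene dose separates the tumors compared here, removes sialic acids from glycoproteins, and in a rat myoblast line it was reported to act on the sugars of the IGF1 and insulin receptors.

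The genes described are 10 listed members of this axis: the ligand Igf1, the receptors Igf1r and Insr, the substrates Irs1 and Irs2, and the binding proteins Igfbp2, Igfbp3, Igfbp4, Igfbp5 and Igfbp7. They are 10 of 19505 genes named on the array, and each is read from its probe set of highest mean over all tumors. The members were chosen by their role in the axis, with the measured NPE minus PE difference of Igf1r already known, so that difference is given as a description. RNA came from whole RMS of the trunk or limbs in mice of 2 genotypes, Neu1+/-/Ptch1+/-/ETV7 TG+/- (NPE, 14 tumors) and Ptch1+/-/ETV7 TG+/- (PE, 7 tumors), with 1 Clariom S Mouse array per tumor. All 21 tumors thus carried a heterozygous loss of Ptch1, the hedgehog receptor, and the human ETV7 transgene, and only NPE tumors also lacked 1 copy of Neu1. The promoter that drives the transgene is not given in the sources used here. Neither the labels nor the titles give each tumor's site or the age and sex of the mouse, both sexes having been used, and p-values measure the spread between these tumors.

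Values are log2 RMA signals, a scale on which 1 unit is a doubling of signal. Array medians lay at 5.32 to 5.41 for NPE and 5.33 to 5.37 for PE tumors, and none of the 10 members lay under the median of the background probes on any array. Neu1 itself averaged 6.36 ± 0.18 (SD, n = 14) over the NPE tumors and 6.62 ± 0.19 (SD, n = 7) over the PE tumors. Its difference of -0.27 did not pass the whole-table test (limma adjusted p = 0.513). For Neu1, 11 of 14 NPE tumors lay below every PE tumor, a count that 0.342% of all probe sets reached. The muscle markers were present in both groups, with Myod1 at 8.13 ± 0.72 and 8.60 ± 0.31, Myog at 9.08 ± 1.06 and 9.79 ± 0.10, and Des at 10.40 ± 0.45 and 10.63 ± 0.18 (SD, NPE then PE). NPE tumors 11 and 12 resembled each other more than any other pair (r = 0.71 of their deviations over all genes), followed by PE tumors 6 and 7 (r = 0.68). NPE tumors 1 and 2 had by far the most adipocyte marker signal. The last number in the tumor titles splits the tumors into the ranges 1 to 10 (8 NPE), 18 to 23 (1 NPE, 5 PE) and 28 to 35 (5 NPE, 2 PE). The labels do not say what that number is, and differences within the 2 ranges that hold both groups are given beside the overall ones.

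Igf1r was the member that differed most between the groups relative to its error. Its signal was 6.23 at the lowest, 7.06 at the median and 7.59 at the highest in NPE tumors, against 7.20, 7.55 and 7.82 in PE tumors. Of the 14 NPE tumors, 11 lay below every PE tumor, and the 3 that overlapped were NPE tumors 7, 11 and 13. Over all probe sets tested, 0.342% had at least 11 NPE tumors below every PE tumor. NPE tumors had a mean of 7.03 ± 0.35 (SD, n = 14) and PE tumors one of 7.56 ± 0.23 (SD, n = 7). The difference, NPE minus PE, was -0.53 (standard error 0.14, 95% confidence interval -0.82 to -0.24) and did not pass the threshold over all probe sets (limma adjusted p = 0.392). Within title numbers 28 to 35, whose 2 PE tumors were the similar PE tumors 6 and 7, the difference was -0.49. Within 18 to 23, with 1 NPE tumor, it was -0.41. The NPE mean was 6.87 in 1 to 10, which holds no PE tumor, and 7.28 in 28 to 35. The difference between the groups was -0.44 without NPE tumors 1 and 2.

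Insr lay in the opposite direction. Its signal ran from 8.38 over a median of 8.67 to 9.07 in NPE and from 7.90 over 8.51 to 8.72 in PE tumors. The groups overlapped more than for Igf1r, with 6 of 14 NPE tumors above every PE tumor, a count that 10.1% of all probe sets reached. NPE tumors 1, 2 and 3 were the highest, at 9.05, 8.99 and 9.07, and PE tumor 6 was the lowest of all at 7.90. The mean difference was 0.27 (standard error 0.11, 95% confidence interval 0.05 to 0.50). It did not pass the threshold over all probe sets (limma adjusted p = 0.530). The exact permutation test of this single value, 2-sided over 116280 splits of the tumors and not adjusted for the other members, gave p = 0.0201. The difference was 0.47 within title numbers 28 to 35 and 0.24 within 18 to 23. Without PE tumor 6 it was 0.18, and without NPE tumors 1 and 2 it was 0.22.

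The substrates Irs1 and Irs2, which dock on both receptors, had group means within their spread. Irs1 averaged 7.28 ± 0.35 (SD) over the NPE tumors and 7.34 ± 0.20 over the PE tumors, and differed by -0.05 with a 95% confidence interval of -0.34 to 0.24 (limma adjusted p = 0.949). The sign of the Irs1 difference turned within both title number ranges that hold both groups, to 0.27 in 28 to 35 and 0.40 in 18 to 23. Irs2 averaged 7.47 ± 0.36 and 7.41 ± 0.10 and differed by 0.05 with an interval of -0.22 to 0.33 (limma adjusted p = 0.946). It was -0.05 within 28 to 35 and 0.15 within 18 to 23. The wide NPE spread of Irs2 came from both ends: NPE tumors 1 and 2 were the highest at 8.16 each, and 6 of 14 NPE tumors lay below every PE tumor while 4 lay above, as in 10.4% and 26.3% of all probe sets.

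**Figure D1:**
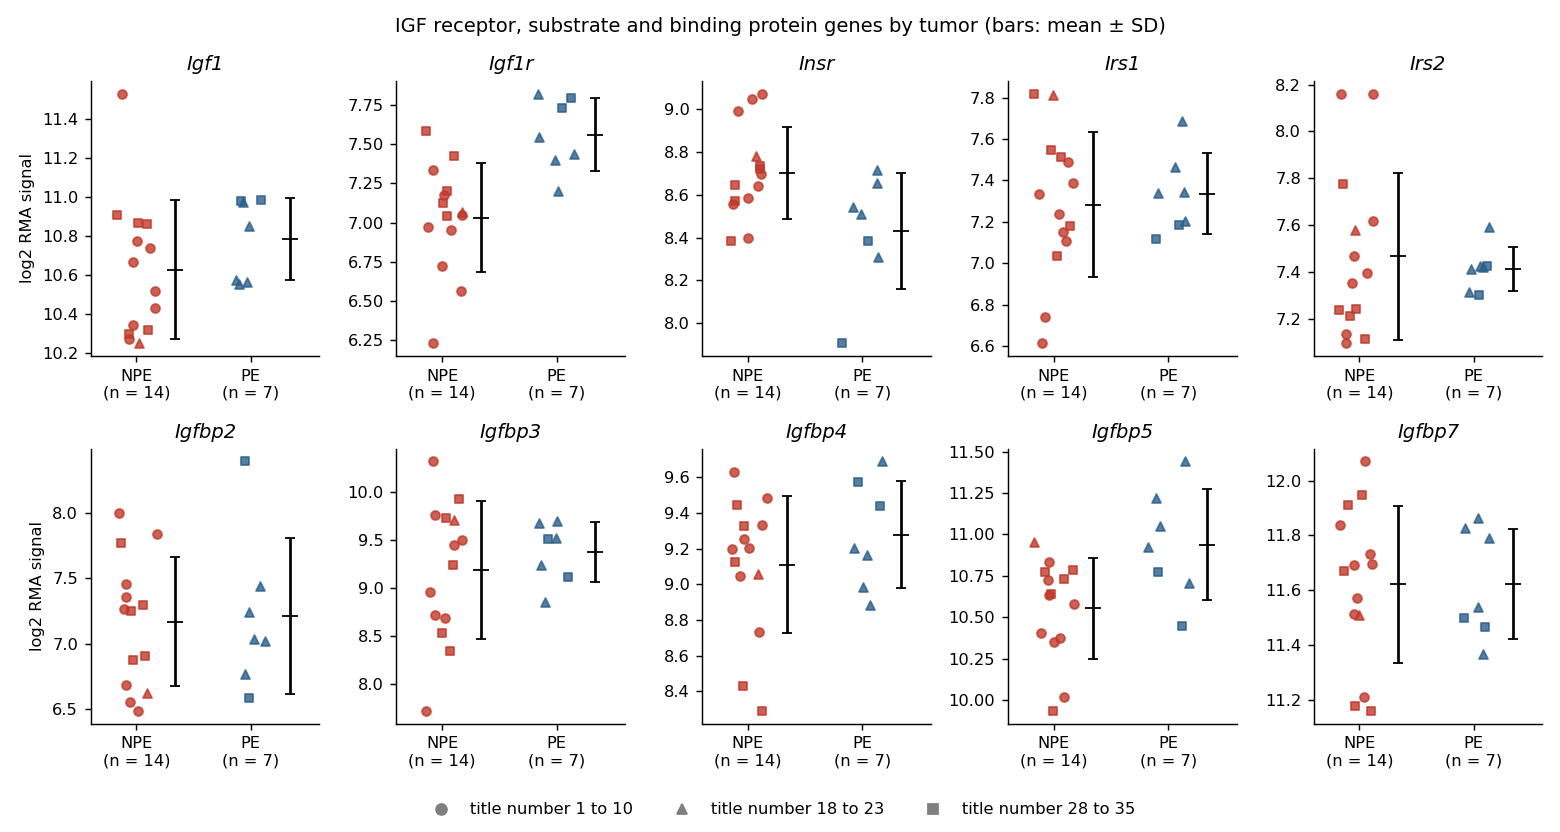
Log2 RMA signal of the 10 member genes (vertical axes, 1 point per tumor) in 14 NPE and 7 PE tumors, with the mean ± SD of each group beside the points and the range of the title number as the symbol. For Igf1r, 11 of 14 NPE tumors lie below every PE tumor, while for Igfbp7 the group means are alike.

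The ligand Igf1, a growth factor made by liver and also locally in muscle, had signals from 10.25 over a median of 10.59 to 11.53 in NPE and from 10.55 over 10.85 to 10.98 in PE tumors. NPE tumor 3 stood above all others at 11.53, and 7 of 14 NPE tumors lay below every PE tumor, as in 5.89% of all probe sets. The mean difference of -0.16 had a 95% confidence interval of -0.45 to 0.14 (limma adjusted p = 0.807). It was -0.33 within title numbers 28 to 35, -0.45 within 18 to 23 and -0.38 with the range as a block (limma adjusted p = 0.617).

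Among the binding proteins that are members, the group means of Igfbp5 were furthest apart relative to the error. Myoblasts are known to produce Igfbp5 as they differentiate. It ran from 9.93 over a median of 10.64 to 10.96 in NPE and from 10.44 over 10.92 to 11.44 in PE tumors. NPE tumors 3 and 4 were the lowest at 10.02 and 9.93, PE tumors 1 and 2 the highest at 11.22 and 11.44, and 5 of 14 NPE tumors lay below every PE tumor, as many as in 16.8% of all probe sets. The difference was -0.38 (standard error 0.14, 95% confidence interval -0.67 to -0.10, limma adjusted p = 0.513), and the exact permutation test of this value alone gave p = 0.0151 (2-sided). For the 7 members other than Igf1r, Insr and Igfbp5 the exact permutation test gave p of 0.304 to 0.997. The difference shrank with the title number range: it was -0.07 with the range as a block (limma adjusted p = 0.964), -0.04 within 28 to 35 and -0.11 within 18 to 23. The PE tumors of 18 to 23 had a mean of 11.07 and those of 28 to 35 a mean of 10.61, beside 10.57 in the NPE tumors of the latter range.

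The other 4 binding proteins among the members had 95% confidence intervals that spanned no difference. Igfbp2 differed by -0.04 (95% confidence interval -0.52 to 0.43), with PE tumor 7 at 8.40 above all others and a difference of 0.15 without it. Igfbp3, which with Igfals forms the main carrier complex of IGFs in serum, differed by -0.19 (-0.74 to 0.36) and was far more spread in NPE (7.72 to 10.32) than in PE tumors (8.86 to 9.70), with NPE 1 the lowest and NPE 3 the highest of all. Igfbp4, a binding protein that is known to block IGF action until it is cleaved, differed by -0.17 (-0.50 to 0.16), with NPE tumors 11 and 12 lowest at 8.29 and 8.43. Igfbp7, a secreted protein of low affinity for IGFs that is common in vessel walls and stroma, had a mean of 11.62 in both groups and an interval of -0.25 to 0.25. Within title numbers 28 to 35 and then 18 to 23, the differences were -0.27 and -0.48 for Igfbp2, -0.16 and 0.32 for Igfbp3, -0.58 and -0.13 for Igfbp4, and 0.09 and -0.17 for Igfbp7. The Igfbp3 difference was -0.07 without NPE tumor 1.

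Over the 10 members, 0 passed an adjusted p of 0.05 in limma, a threshold that 0.00901% of all probe sets passed. At an unadjusted p of 0.05, 1 member was higher (Insr) and 2 were lower (Igf1r and Igfbp5) in NPE tumors, against 4.05% higher and 4.36% lower of all 22206 probe sets (8.41% in either direction), and nothing is read from that count because Igf1r was known when the list was drawn up. The NPE mean was the higher in 2 members and the lower in 8, against 49.8% and 50.2% of all probe sets, with a median difference of -0.10 over the members and -0.0005 over all probe sets tested.

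**Figure D2:**
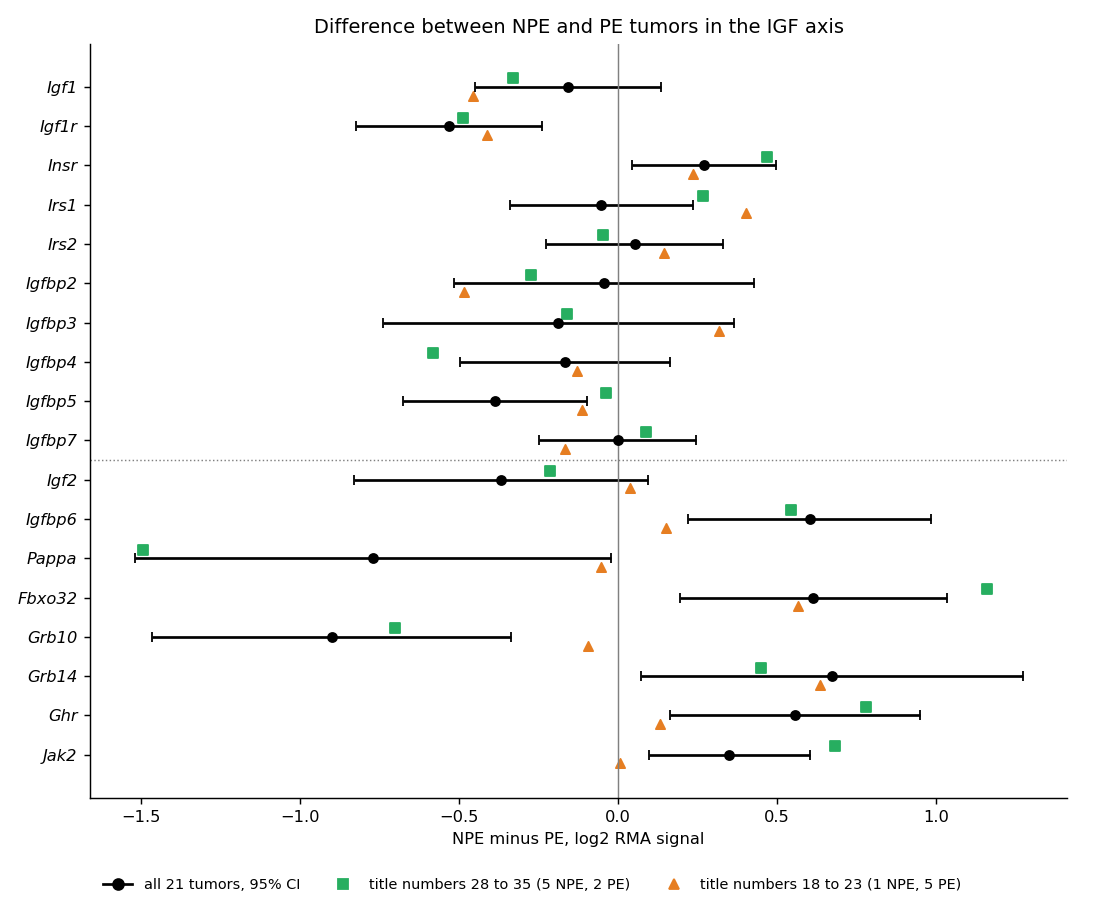
NPE minus PE difference in log2 RMA signal (horizontal axis) for the 10 members, above the dotted line, and 8 other genes of the axis, with the 95% confidence interval from limma over 21 tumors and the difference within each title number range that holds both groups. Within 28 to 35 (2 PE tumors) and 18 to 23 (1 NPE tumor), Igf1r is at -0.49 and -0.41, and Igfbp5 at -0.04 and -0.11.

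The wider axis was read from a list of 57 genes, of which 52 were analysed. None passed the adjusted threshold in limma, and at an unadjusted p of 0.05 there were 6 higher and 4 lower, beside 4.05% and 4.36% of all probe sets. By sign there were 17 higher and 35 lower, beside 49.8% and 50.2%, with a median of -0.08. The counts include the members and so the Igf1r difference that was known beforehand. Beside the members, the genes lower in NPE at that unadjusted level were Grb10 and Pappa. Grb10, an imprinted adaptor that binds both receptors and dampens their signal, averaged 8.09 ± 0.74 (SD) over the NPE tumors and 8.99 ± 0.30 over the PE tumors. It differed by -0.90 (standard error 0.27, limma adjusted p = 0.465), by -0.70 within title numbers 28 to 35 and by -0.09 within 18 to 23. Pappa, the protease that cleaves Igfbp4 and frees the ligand, differed by -0.77 (standard error 0.36, limma adjusted p = 0.580), with -1.49 within 28 to 35 and -0.05 within 18 to 23. All 5 genes of the group that holds the proteases of the binding proteins (Pappa, Pappa2, Htra1) and the stanniocalcins Stc1 and Stc2, which inhibit pappalysins, had the lower mean in NPE, with a median of -0.40 and 1 of 5 under the unadjusted level. This is 1 of 10 groups of the list by role, and 50.2% of all probe sets had the lower mean in NPE.

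The genes higher in NPE at the unadjusted level, beside Insr, were Igfbp6, Fbxo32, Grb14, Ghr and Jak2. Igfbp6, a binding protein that prefers IGF2, averaged 7.08 ± 0.48 (SD) over the NPE tumors and 6.48 ± 0.24 over the PE tumors, and differed by 0.60 (standard error 0.18, limma adjusted p = 0.466). In Igfbp6, 11 of 14 NPE tumors lay above every PE tumor, as in 0.32% of all probe sets, and the difference was 0.55 within title numbers 28 to 35 and 0.15 within 18 to 23. Fbxo32, the muscle ubiquitin ligase atrogin-1 that FoxO factors switch on when IGF signalling is low, differed by 0.62 (limma adjusted p = 0.504), and 10 of 14 NPE tumors lay above every PE tumor, as in 0.77% of all probe sets. Its difference was 1.16 within 28 to 35 and 0.57 within 18 to 23. The other atrophy ligase, Trim63, differed by 0.14 (limma adjusted p = 0.912). Ghr, the growth hormone receptor, differed by 0.56 and its kinase Jak2 by 0.35 (both with a limma adjusted p of 0.513), while the transcription factors Stat5a and Stat5b on the same path differed by -0.06 and -0.03. Within 28 to 35 the differences were 0.78 for Ghr and 0.68 for Jak2, and within 18 to 23 they were 0.13 and 0.0069. Grb14, an adaptor of the Grb10 family, differed by 0.67 (limma adjusted p = 0.540), the opposite sign of Grb10, with 0.45 within 28 to 35 and 0.64 within 18 to 23. Its signal was low, with means of 4.32 (NPE) and 3.65 (PE) beside array background medians of 2.64 to 3.18 and 2.66 to 2.90. Without NPE tumors 1 and 2 the differences were 0.41 for Grb14, 0.39 for Ghr, 0.35 for Jak2, 0.53 for Fbxo32 and 0.58 for Igfbp6. Igf2, the ligand with the strongest link to RMS, averaged 12.19 ± 0.62 (SD) over the NPE tumors and 12.56 ± 0.12 over the PE tumors, and differed by -0.37 (limma adjusted p = 0.674). This value rests in part on NPE tumor 1: it was -0.22 without it and -0.15 without NPE tumors 1 and 2, and it was -0.21 within 28 to 35 and 0.04 within 18 to 23. None of the 8 measured genes of PI3K and Akt reached even the unadjusted level.

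The signals of the members were also followed across all 21 tumors. The family of relations held 45 pairs of members and 100 pairs of a member and the mean of a marker list for a cell type or for the cell cycle, and p-values were adjusted over all 145. Of the member pairs, 5 passed an adjusted p of 0.05, and of the pairs with lists, 20. The share of other genes that would pass in the same way was not computed, so nothing is read from these counts. These relations are over bulk RNA, in which fewer cells of a type and less RNA per cell cannot be told apart.

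**Figure D3:**
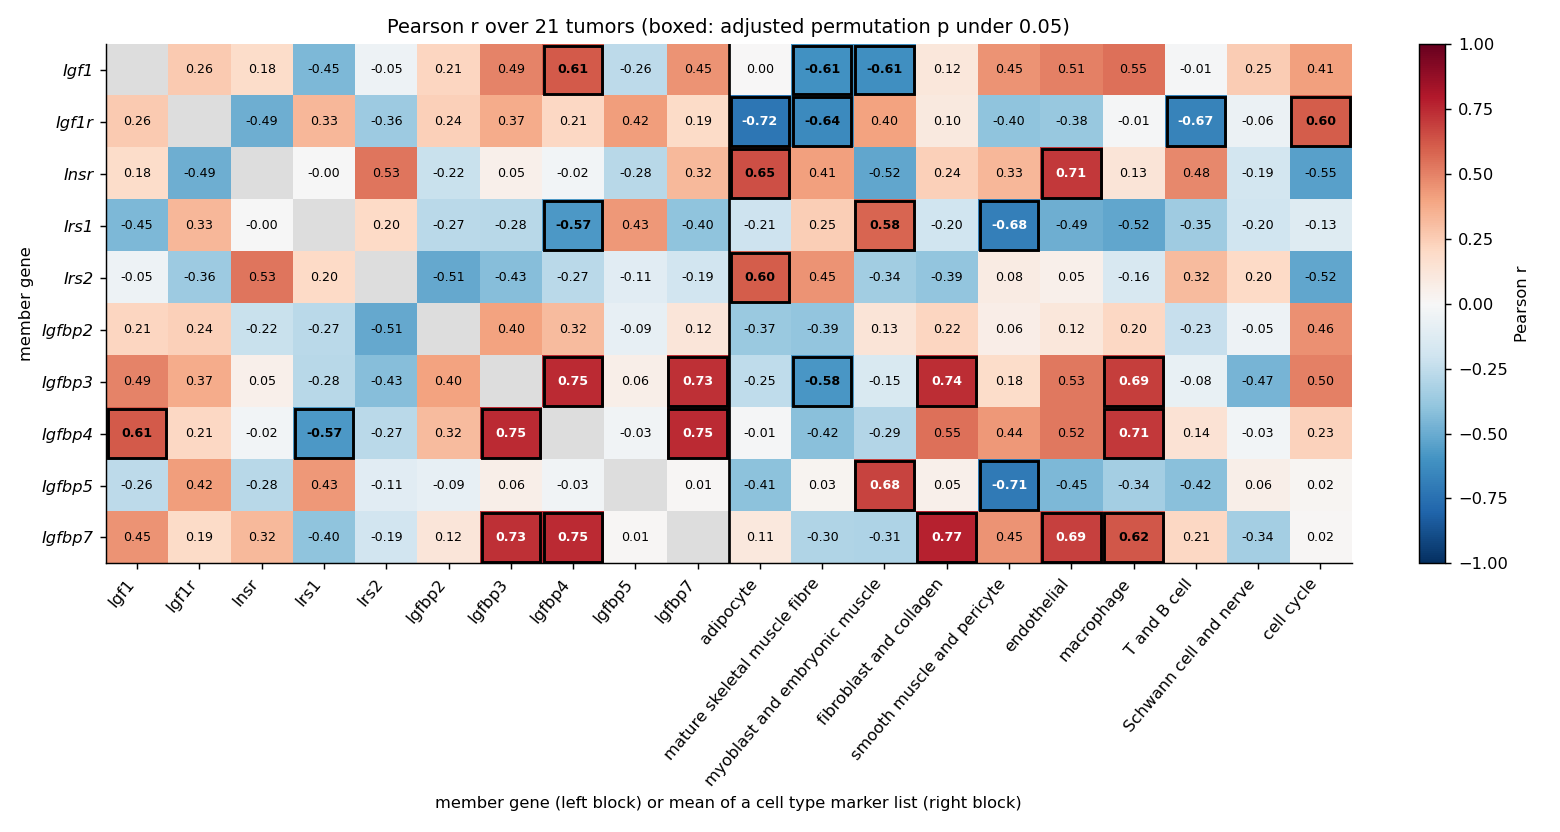
Pearson r over 21 tumors between each member (rows) and every other member (left block) or the mean log2 signal of each marker list (right block), with relations at an adjusted permutation p under 0.05 boxed. Igfbp3, Igfbp4 and Igfbp7 form a block at 0.73 to 0.75, and Igf1r is lowest where adipocyte markers are highest, at -0.72.

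The closest relations between 2 members were among 3 binding proteins. Igfbp4 and Igfbp7 had r = 0.75 (permutation p = 8e-05, adjusted 0.00580; rho = 0.60, p = 0.00422, adjusted 0.0471). Igfbp3 had r = 0.75 with Igfbp4 (p = 0.00019, adjusted 0.00621; rho = 0.70, p = 0.00056, adjusted 0.0271) and r = 0.73 with Igfbp7 (p = 0.00014, adjusted 0.00621; rho = 0.66, p = 0.00154, adjusted 0.0319). Leaving out the 2 tumors farthest from the median of the first gene gave 0.58, 0.67 and 0.60. NPE tumors 1, 11 and 12 held the 3 lowest signals of each of these genes, and NPE tumor 3 the highest of Igfbp3 and Igfbp7. Within NPE tumors the 3 values were 0.87, 0.79 and 0.73, and within the 7 PE tumors 0.35, 0.49 and 0.88. Within the title number ranges they lay between 0.63 and 0.95, and averaging the pairs of tumors that resemble each other left them at 0.75, 0.74 and 0.69. Igfbp5 was not part of this block, with r of 0.06, -0.03 and 0.01 to Igfbp3, Igfbp4 and Igfbp7. Ranked by r among 19504 other genes, Igfbp7 was number 44 for Igfbp4. For Igfbp3, Igfbp4 was number 112 and Igfbp7 number 145. Many genes other than members thus lay closer to each of them.

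The genes nearest to these binding proteins among 19504 others are given next. For Igfbp3 they were Serpinh1 (r = 0.91), the collagen chaperone, Ms4a6d (0.88), the Fc receptors Fcgr3 (0.88) and Fcgr2b (0.87) of myeloid cells, and Emilin1 (0.87) of elastic fibres. For Igfbp7 they were Mfge8 (0.91), a secreted bridge for apoptotic cells, Pea15a (0.89), Tmod3 (0.88), Il1rl2 (0.88) and B4galnt1 (0.86). For Igfbp4 they were Lasp1 (0.85), Gna12 (0.84), Lbp (0.84), Tfe3 (0.83) and Ccm2 (0.83), and Marchf6 was the lowest (-0.89). The muscle gene Lrrc20 was among the 3 lowest of both Igfbp3 (-0.82) and Igfbp4 (-0.85). These genes were picked as the extremes of all genes, so their r is a description with no test.

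Igfbp7 had r = 0.77 with the fibroblast and collagen list (p = 3e-05, adjusted 0.00435; rho = 0.67, p = 0.00121, adjusted 0.0314), and all 9 of its measured genes were positive, from 0.40 to 0.80. Igfbp3 had r = 0.74 with the same list (p = 0.00024, adjusted 0.00621; rho = 0.62, p = 0.00354, adjusted 0.0442), again with 9 of 9 genes positive. Without their 2 farthest tumors the values were 0.75 and 0.51. Igfbp7 also went with the endothelial list at r = 0.69 (p = 0.00056, adjusted 0.00677; rho = 0.65, p = 0.00210, adjusted 0.0354), and with its 2 farthest tumors left out at 0.55. Igfbp3, Igfbp4 and Igfbp7 all went with the macrophage list over 21 tumors, at 0.69, 0.71 and 0.62 (adjusted p of 0.00633, 0.00633 and 0.022; rho of 0.59, 0.51 and 0.51, with p of 0.00539, 0.0211 and 0.0193 and adjusted p of 0.0501, 0.113 and 0.112, so that none of the 3 passed by rho), which became 0.56, 0.46 and 0.41 without the 2 farthest tumors. These macrophage relations were those of NPE tumors (0.80, 0.87 and 0.81), the values within the 7 PE tumors being -0.33, -0.06 and -0.46, a difference between groups that was not tested. The mean of the fibroblast and collagen list itself ran from 7.96 to 9.29 in NPE and from 8.38 to 9.30 in PE tumors, that of the macrophage list from 6.44 to 8.17 and from 6.87 to 7.64. No gene of either list was below background on all arrays. Igfbp3 was also opposed to the mature muscle fibre list, r = -0.58 (p = 0.00569, adjusted 0.0393; rho = -0.47, p = 0.0329, adjusted 0.149), or -0.48 without its 2 farthest tumors and -0.42 without NPE tumors 1 and 2, where it did not pass (adjusted p = 0.220).

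**Figure D4:**
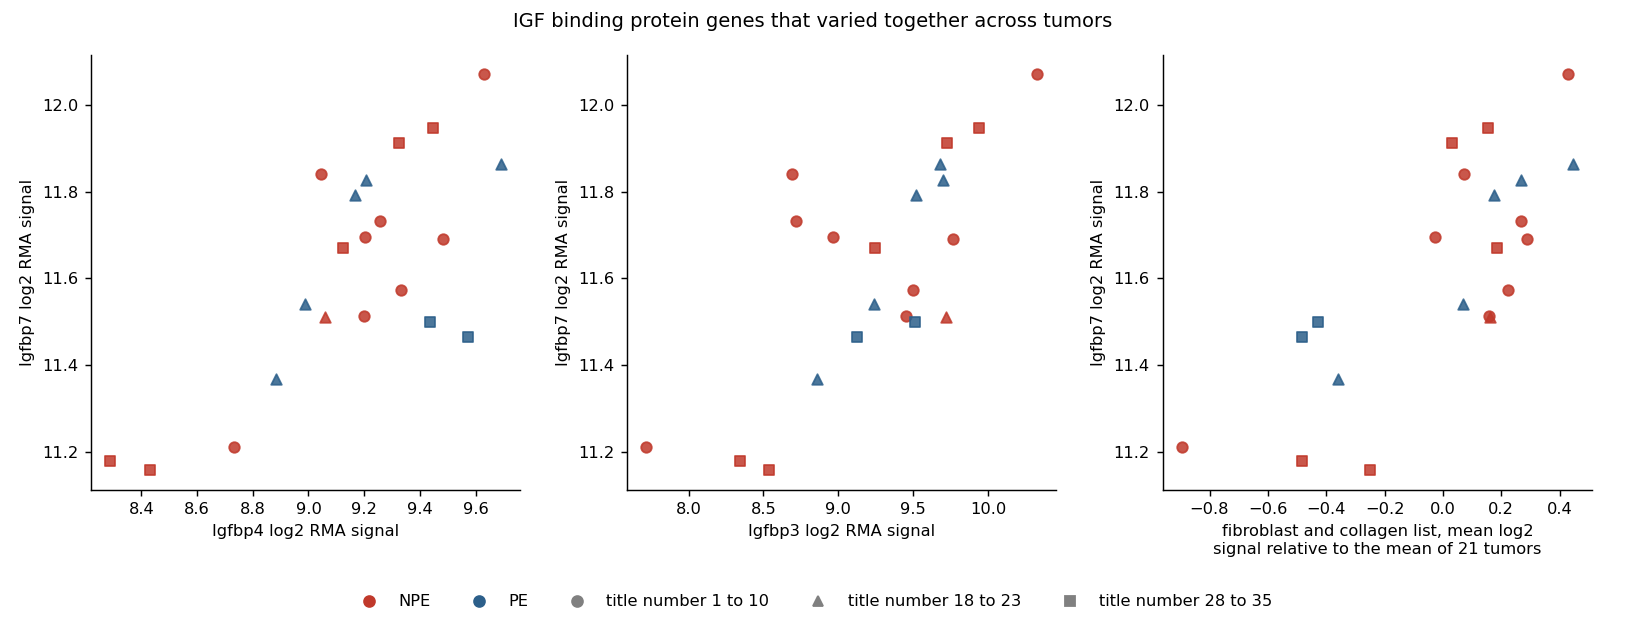
Log2 RMA signal of Igfbp7 (vertical axes) against Igfbp4, Igfbp3 and the mean of the fibroblast and collagen list relative to its mean over 21 tumors (horizontal axes), 1 point per tumor, coloured by group and shaped by title number range. The values of r are 0.75, 0.73 and 0.77, and NPE tumors 1, 11 and 12 are the lowest on the vertical axis of each panel.

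Igfbp7 is shown with its upstream sequence because it had the closest relation with stroma. The 250 bases before its start site in RefSeq (GRCm38.p6, chr5:77408046-77408295, minus strand, written 5′ to 3′ along the gene) hold 4 GC boxes, in capitals, searched as GGGCGG on both strands.
Igfbp7: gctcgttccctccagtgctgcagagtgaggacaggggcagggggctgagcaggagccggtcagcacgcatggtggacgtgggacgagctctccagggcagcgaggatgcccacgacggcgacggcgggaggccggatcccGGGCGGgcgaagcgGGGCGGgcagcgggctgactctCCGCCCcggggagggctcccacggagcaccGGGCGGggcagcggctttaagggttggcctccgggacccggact
A GC box is the letters bound by Sp1-type factors, and 32.7% of 32851 promoters of the same length hold at least 1. G and C make up 74.0% of this stretch, against a median of 52.4% over all promoters. The match is a description and not a site shown to act in these tumors.

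Igf1r was lower where adipocyte markers were higher, with r = -0.72 (p = 0.0003, adjusted 0.00621; rho = -0.62, p = 0.00366, adjusted 0.0442), and all 9 measured genes of that list were negative, from -0.74 to -0.62. It was likewise lower with the T and B cell list, r = -0.67 (p = 0.00115, adjusted 0.0119; rho = -0.64, p = 0.0022, adjusted 0.0354), and with the mature muscle fibre list, r = -0.64 (p = 0.0017, adjusted 0.0164; rho = -0.63, p = 0.00319, adjusted 0.0442). It was higher with the cell cycle list, r = 0.60 (p = 0.0038, adjusted 0.028; rho = 0.51, p = 0.0209, adjusted 0.113). Without its 2 farthest tumors, NPE 1 and NPE 5, the values were -0.60, -0.58, -0.56 and 0.54. Without NPE tumors 1 and 2, the tumors richest in adipocyte signal, the 4 values were -0.50, -0.57, -0.44 and 0.33, and none of them passed (adjusted p of 0.132, 0.0581, 0.191 and 0.359).

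The adipocyte list is given beside the lower Igf1r signal of NPE tumors because the 2 moved together. Its mean ran from 4.95 over a median of 6.55 to 9.79 in NPE and from 4.69 over 5.42 to 6.76 in PE tumors, with 9 of 10 genes measured and none below background on all arrays. Within NPE tumors alone r was -0.68, within the 7 PE tumors it was -0.45, and within title numbers 18 to 23, which hold 5 of the PE tumors, it was -0.29. The T and B cell list ran from 4.04 to 5.49 and from 4.14 to 4.62, and the cell cycle list from 4.66 to 7.01 and from 5.97 to 7.16 (NPE then PE). The part of these lists in the Igf1r difference was not tested.

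Among single genes, Igf1r was nearest to Atxn2l (r = 0.87), Nup188 of the nuclear pore (0.87), F3, which encodes tissue factor (0.86), the integrin subunit Itgav (0.86) and Ireb2, the iron regulatory protein (0.84). It was most opposed to Uqcrb, a subunit of respiratory complex III (-0.87), Slc28a2b (-0.85) and Entpd2 (-0.84). The relation of Igf1r to Insr was -0.49 (p = 0.0262, adjusted 0.0974; rho = -0.38, p = 0.0958, adjusted 0.259), which did not pass. Igf1r is shown with its upstream sequence because it differed most between the groups. The 250 bases before its start site (RefSeq, GRCm38.p6, chr7:67952007-67952256, plus strand) hold 2 GC boxes, in capitals, between 43 and 21 bases before the start, and no exact TATAAA, a motif of 12.4% of promoters.
Igf1r: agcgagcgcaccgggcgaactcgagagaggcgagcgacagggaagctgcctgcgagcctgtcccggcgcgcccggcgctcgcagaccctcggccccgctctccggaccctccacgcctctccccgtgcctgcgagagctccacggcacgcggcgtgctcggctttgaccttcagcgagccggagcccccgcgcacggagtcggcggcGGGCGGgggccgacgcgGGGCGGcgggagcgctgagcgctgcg
G and C make up 77.6% of the Igf1r stretch.

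Insr varied with vessel and fat markers. It was higher with the endothelial list, r = 0.71 (p = 0.00048, adjusted 0.00633; rho = 0.73, p = 0.00031, adjusted 0.0271), with all 9 measured genes positive, and it was 0.52 without NPE tumor 3 and PE tumor 6, its 2 farthest tumors. It was higher with the adipocyte list too, r = 0.65 (p = 0.00209, adjusted 0.0189; rho = 0.59, p = 0.00602, adjusted 0.0501), or 0.46 without NPE tumors 1 and 2, which did not pass (adjusted p = 0.160). Its 5 nearest genes were Ppp1r2 (r = 0.84), the water channel Aqp1 (0.83), Hsd17b4 (0.82), Papss2 (0.81) and the endothelial receptor gene Tek (0.81). Tek is a gene of the endothelial list, so its value is already part of that relation. Steap1, Col26a1 and Sox8 were the most opposed, each at -0.85. The endothelial list ran from 6.13 to 7.96 in NPE and from 6.26 to 7.12 in PE tumors, and its part in the Insr difference was not tested.

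**Figure D5:**
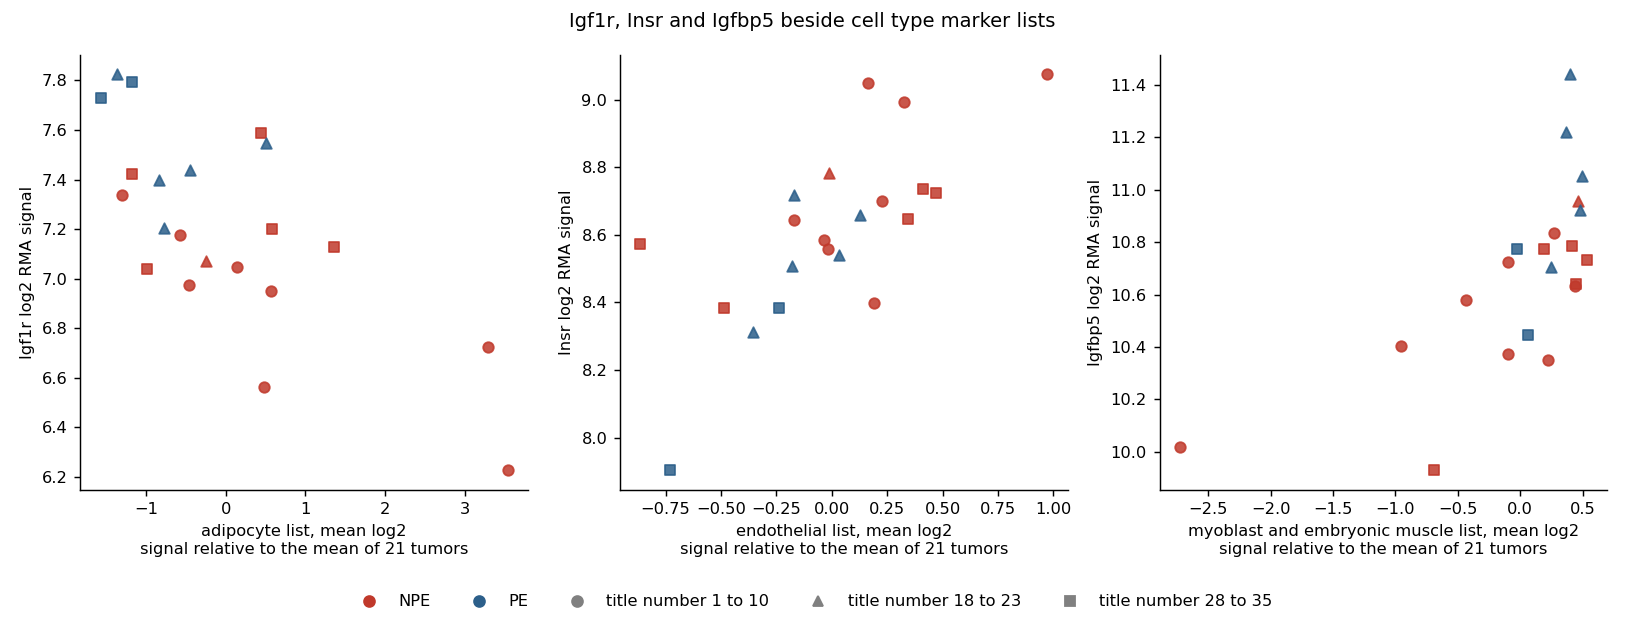
Log2 RMA signal of Igf1r against the adipocyte list, Insr against the endothelial list and Igfbp5 against the myoblast and embryonic muscle list, each list as its mean relative to 21 tumors, 1 point per tumor. The values of r are -0.72, 0.71 and 0.68, the 2 points far to the right of the first panel are NPE tumors 1 and 2, and the point far to the left of the last is NPE tumor 3.

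Igfbp5 varied with markers of immature muscle. Its r with the list of myoblast and embryonic muscle genes was 0.68 (p = 0.00037, adjusted 0.00633; rho = 0.68, p = 0.00092, adjusted 0.0314), with 10 of 10 genes positive, and it was 0.65 without NPE tumor 3, which had the lowest signal of that list. It was opposed to the smooth muscle and pericyte list, r = -0.71 (p = 0.00026, adjusted 0.00621; rho = -0.59, p = 0.00622, adjusted 0.0501). Of the 9 genes of that list 7 were negative with Igfbp5 and 2 positive, the highest at 0.52. Leaving out the 2 farthest tumors gave 0.72 and -0.57. Within NPE and PE tumors the myoblast values were 0.74 and 0.66, though within title numbers 18 to 23 the value was 0.24 over 6 tumors. The nearest genes were Fndc5 (r = 0.84), which encodes the precursor of irisin, Ip6k3 (0.81), Prag1 (0.79), Tecrl (0.79) and Myod1 (0.79), a gene of that list and a master regulator of myogenesis. Crispld2 was the most opposed at -0.88. The myoblast list ran from 6.42 to 9.68 in NPE and from 9.12 to 9.64 in PE tumors, and its part in the Igfbp5 difference was not tested.

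Myod1 and its relatives bind the E box, CANNTG, and for this reason the upstream sequence of Igfbp5 is shown with its match in capitals. The 250 bases before the start site (RefSeq, GRCm38.p6, chr1:72874866-72875115, minus strand) hold 1 E box, 77 to 72 bases before the start, and no GC box.
Igfbp5: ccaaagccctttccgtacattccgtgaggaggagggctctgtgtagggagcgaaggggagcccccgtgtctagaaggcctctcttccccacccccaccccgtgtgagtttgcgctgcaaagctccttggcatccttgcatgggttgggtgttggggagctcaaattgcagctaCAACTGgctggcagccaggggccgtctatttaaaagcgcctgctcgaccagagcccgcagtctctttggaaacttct
An E box stands in 66.2% of promoters of this length, so most genes share this feature. The stretch has 58.8% G and C, less than those of Igf1r and Igfbp7.

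Irs1 shared part of the Igfbp5 pattern. It was higher with the myoblast list, r = 0.58 (p = 0.00673, adjusted 0.0421; rho = 0.70, p = 0.00048, adjusted 0.0271), and lower with the smooth muscle and pericyte list, r = -0.68 (p = 0.00071, adjusted 0.00792; rho = -0.67, p = 0.0013, adjusted 0.0314), or 0.47 and -0.60 without its 2 farthest tumors. All 10 genes of the myoblast list were positive, and of the 9 of the smooth muscle and pericyte list 7 were negative and 2 positive, the highest at 0.63. Its nearest genes were of striated muscle in part: Prkar2a (0.84), Myh7, the slow myosin heavy chain (0.84), Cand2 (0.82), Tmod1, a thin filament capping protein (0.82), and Pknox2 (0.80). Irs1 and Igfbp4 were opposed, r = -0.57 (p = 0.00697, adjusted 0.0421; rho = -0.52, p = 0.0176, adjusted 0.111), and -0.49 without NPE tumors 3 and 5. Without NPE tumor 11 the value was -0.46 and no longer passed (adjusted p = 0.145).

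Igf1 was higher where muscle markers were lower. It was opposed to the mature muscle fibre list, r = -0.61 (p = 0.00347, adjusted 0.0265; rho = -0.59, p = 0.00543, adjusted 0.0501), and to the myoblast list, r = -0.61 (p = 0.00823, adjusted 0.0477; rho = -0.40, p = 0.0723, adjusted 0.223). The myoblast relation rests on NPE tumor 3, which had the highest Igf1 and the least muscle signal: it was -0.23 without that tumor and -0.18 without NPE tumors 3 and 10, and the fibre relation was -0.47 and -0.40. Igf1 went with Igfbp4 at r = 0.61 (p = 0.00323, adjusted 0.026; rho = 0.59, p = 0.00579, adjusted 0.0501), and at 0.59 without the same 2 tumors. The most opposed single genes were all of striated muscle, Cacng1 (-0.83), a subunit of its calcium channel, Pdlim3 (-0.82) and Klhl41 (-0.81), which were -0.71, -0.80 and -0.70 without NPE tumor 3. The nearest were Cnpy4 (0.83), Adcy3 (0.82), Praf2 (0.80), Pik3c2a (0.80) and Pnp (0.79).

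Irs2 and Igfbp2 had few relations. Irs2 went with the adipocyte list at r = 0.60 (p = 0.00625, adjusted 0.0412; rho = 0.18, p = 0.445, adjusted 0.687), but this rests on NPE tumors 1 and 2, without which r was -0.17. The gene nearest to Irs2 was Igfals (r = 0.82), the acid-labile subunit that holds IGF and Igfbp3 together in serum, followed by Unc93a2 (0.81), Plcd4 (0.79), Ces1f (0.79) and Cyp4f37 (0.78), and Ikbip was the most opposed (-0.76). Igfals had a low signal, with means of 3.75 (NPE) and 3.51 (PE) beside array background medians of 2.64 to 3.18 and 2.66 to 2.90. The r of these single genes was not computed without NPE tumors 1 and 2. Irs2 had r of 0.53 with Insr (p = 0.0152, adjusted 0.0732; rho = 0.32, p = 0.159, adjusted 0.344) and -0.51 with Igfbp2 (p = 0.0194, adjusted 0.0810; rho = -0.49, p = 0.0264, adjusted 0.132), neither of which passed. For Igfbp2 no relation with a member or a list passed, and its nearest genes reached lower values than those of the other members, from 0.66 for Cul4b to 0.71 for Olfr152, with Rangrf the most opposed at -0.73.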

How the data were processed

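Total RNA of 21 tumors was hybridised to Clariom S Mouse arrays. The authors deposited RMA values on a log2 scale (background-corrected, quantile-normalized across arrays, summarised by median polish), and the submitters' processing notes name Affymetrix Expression Console 1.1. The labels and methods name different labeling kits. RMA draws arrays toward 1 distribution, and probe signals were not used here. Of 28846 probe sets, 94 controls and 6546 with MG- names were left out, leaving 22206. Names came from GEO's platform annotation, which can be old (19572 with 1 symbol, 2634 with none). Of several probe sets per gene (55 genes), the one of highest mean was used. The number of arrays limits the precision.

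Differences, NPE minus PE, came from limma 3.58.1 in R 4.3.3 (lmFit, eBayes, 2-sided, no covariate) and p-values were adjusted by Benjamini-Hochberg over all probe sets at 0.05. Single values had an exact permutation test over all 116280 splits. Correlations had 2-sided permutation tests of 100000 resamples in Python 3.11.15, adjusted over 145 relations, and list means left out the members. Scripts were tested on simulated data. Named genes were the members, genes of the IGF list at an unadjusted p under 0.05 with Igf2, the 5 highest and 3 lowest r per member (some given), and label and tissue checks. Sequences were taken from RefSeq promoters of GRCm38.p6, which held 9 of 10 members. Alternatives changed the variance model, weights, normalization, filters, probe set, blocks, covariates and tumors. Of the Y-linked genes used as a covariate, 3 were named. The members and lists were chosen with earlier results of these data known.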

Additional observations from a re-analysis of the deposited data

How the results depend on the processing

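In each of 36 alternatives, 0 members passed the adjusted threshold. Of the IGF list 0 genes passed except under 2 alternatives, where 1 passed. These were Ghr (0.78, limma adjusted p = 0.0471) with only title numbers 28 to 35, and Grb10 under the replicate block below. With only 28 to 35, 355 of 22206 probe sets passed, against 2 in the main fit. The 2 PE tumors of that range were the similar PE tumors 6 and 7. Igf1r was lower (-0.67 to -0.41), Insr higher (0.18 to 0.47) and Igfbp5 lower (-0.54 to -0.04) in NPE under all 36 alternatives. Small differences turned sign. Irs1 was 0.013 with array weights, 0.32 with the title number range as a block, 0.27 with only 28 to 35 and 0.40 with only 18 to 23. Irs2 was -0.0043 with array weights, -0.047 with only 28 to 35 and -0.062 without NPE tumors 1 and 2. Igfbp3 was 0.015 with the range block and 0.32 with only 18 to 23, and Igf2 was 0.039 there. Igfbp7 was 0.091 with only 28 to 35 and 0.028 without NPE tumors 1 and 2, and Igfbp2 was 0.065 without them. With each tumor left out in turn, Igfbp2 ran from -0.15 to 0.15, Igfbp7 from -0.043 to 0.040 and Irs1 from -0.093 to 0.0070. The causes were not tested.

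Of the 45 member pairs, 3 passed with Spearman's rho, 3 in NPE tumors alone and 3 to 7 with each tumor left out, 3 without NPE tumor 11 or 12. Of the 100 relations with lists, 10 passed with rho, 12 in NPE tumors alone and 16 to 30 with each tumor left out, the most without PE tumor 6. The 3 pairs among Igfbp3, Igfbp4 and Igfbp7 passed under all 28 alternatives. Igf1 with Igfbp4 failed under 5 and Irs1 with Igfbp4 under 12.

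NPE and PE tumors share replicate numbers 1 to 7, but tumors of the same number did not deviate together (r of -0.31 to 0.13 over 7 pairs, with 0 of 7 PE tumors closest to their own number). With the replicate number as a block, 243 probe sets passed against 2 without it. In that fit 1 gene of the IGF list passed (Grb10, -1.37, limma adjusted p = 0.0386) and Igfbp7 was 0.090. The -0.67 of Igf1r and the -0.54 of Igfbp5 given above came from the same fit. Only the 7 pairs of tumors with the same number bear on its differences, because every other NPE tumor was alone in its block. The fit thus compared 7 NPE with 7 PE tumors and not all tumors.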
